A study of Mus musculus with 7 samples.

Results

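Spi1 encodes PU.1, and its relatives Spib and Spic encode the transcription factors Spi-B and Spi-C. The open chromatin regions (OCRs) around these 3 genes were taken from ATAC-seq of HPC7 cells, as every deposited peak that overlapped a gene body or the 50 kb on either side of it (mouse build mm10, GENCODE M21). Peaks of the 7 libraries that overlapped by at least 1 bp were merged, which gave 61 OCRs of 144931 over the genome. Of these, 25 lay in the Spi1 window, 29 in the Spib window and 7 in the Spic window.

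HPC7 (also written HPC-7) is a mouse hematopoietic progenitor line that was derived from embryonic stem cells made to express Lhx2 and that depends on stem cell factor. The cells were grown with 50 ng/ml stem cell factor and 5% bovine calf serum, and 7 libraries from independent culture batches formed 1 group, for which the labels give no treatment, time or genotype contrast. The line stands for 1 immortalised state of a progenitor and not for sorted blood cells. The assay reads where the transposase Tn5 can cut chromatin, and no RNA was measured.

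The libraries are called HPC7-1, HPC7-2, HPC7-4, HPC7-5, HPC7-6, HPC7-7 and HPC7-8, and wherever 7 values follow each other they stand in this order. They listed 84593 to 132852 peaks, fewest in HPC7-6 and most in HPC7-1. The total number of reads is not held in the lists, but the estimated background under a peak ranged from 4.44 reads in HPC7-2 to 20.4 reads in HPC7-1. Peak names carry the prefix VD in 3 libraries (HPC7-1, HPC7-2, HPC7-4) and EtOH in 4. What these prefixes mean is not stated in the labels, so whether they mark a treatment is unknown and they were not used as groups, and values within each are given only beside the tests. Of 10 progenitor markers, 8 had a peak within 1 kb of their reference start in all 7 libraries, and Gata2 and Erg, which had none there, had one in all 7 at another annotated start. Over all protein-coding genes, 52.1% had a peak in all 7 at the reference start and 55.9% at any annotated start. None of 5 B cell markers had a promoter peak in any library, at any annotated start. Of 5 macrophage markers, 2 (Csf1r and Cd68) had one in all 7 at the reference start, as did 3 of 5 erythroid markers, Klf1 and Epor among them, which are shares near that of all promoters. Cd163, a macrophage marker, and Lck, a T cell marker, each had one in 4 libraries at the reference start and in all 7 at another annotated start. The other 4 of 5 T cell markers, and all 5 markers of other tissues, had none in any library at any annotated start.

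PU.1 is an ETS-family factor that directs myeloid and B cell development, and its dose decides between fates. Its transcription depends on the proximal promoter and on an upstream regulatory element (URE), a conserved enhancer far upstream that is bound by RUNX1, by C/EBP factors and by PU.1 itself. Spi-B acts in B cells and plasmacytoid dendritic cells, and Spi-C is known for its part in red pulp macrophages, which recycle iron from red cells. All 3 proteins share the ETS domain, which binds DNA at a GGAA core.

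The sequences that the results turn on are shown 5′ to 3′ (assembly GRCm38.p6, that is mm10). The first 2 are centred on the summits of OCRs of the Spi1 window and are on the plus strand, at chr2:91082930-91083229 for the URE and chr2:91101448-91101647 for the OCR at +5.5 kb. The third is centred on the summit of the strongest OCR inside Spib, on the minus strand at chr7:44527976-44528175. Capitals mark matches on either strand to any of 7 motifs. These were the PU.1-type site AGGAAGT, which holds the GGAA core, the RUNX site TGTGGT, the site AGATAA of GATA factors, the C/EBP site TTGCNNAA, the site TGANTCA for AP-1, the STAT site TTCNNNGAA, and an IRF motif in which GAAA is repeated after any 2 bases.
URE: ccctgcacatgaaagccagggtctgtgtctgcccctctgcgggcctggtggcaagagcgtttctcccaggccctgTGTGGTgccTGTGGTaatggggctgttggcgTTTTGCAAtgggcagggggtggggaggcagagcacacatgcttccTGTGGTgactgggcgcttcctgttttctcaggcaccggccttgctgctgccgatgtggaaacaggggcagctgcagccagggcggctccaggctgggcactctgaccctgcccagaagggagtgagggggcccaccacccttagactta
Spi1 +5.5 kb: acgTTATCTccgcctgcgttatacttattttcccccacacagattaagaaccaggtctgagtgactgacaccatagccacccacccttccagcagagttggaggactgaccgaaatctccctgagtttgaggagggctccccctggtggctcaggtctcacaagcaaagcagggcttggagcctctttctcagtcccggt
Spib +4.0 kb: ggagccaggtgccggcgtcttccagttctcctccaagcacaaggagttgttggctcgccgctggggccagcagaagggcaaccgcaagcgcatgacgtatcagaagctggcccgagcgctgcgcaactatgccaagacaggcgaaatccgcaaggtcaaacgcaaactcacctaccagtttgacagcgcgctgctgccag

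In the printed 300 bases the URE held 3 RUNX strings, at bases 76 to 81, 85 to 90 and 152 to 157, and 1 C/EBP string at bases 107 to 114. At least 1 TGTGGT was found in 33.5% of the summit windows (150 bases on either side of a summit) of all merged OCRs, whereas 3 or more were found in 1.10%. The URE was not alone in this within the Spi1 window, since the OCR at +67.0 kb held 4. A C/EBP string was found in 11.01% of them. The URE window also held 3 GGAA cores, and 68.4% of all windows hold 3 or more, but it held no exact match to AGGAAGT. The sequence at +5.5 kb has a GATA string at bases 4 to 9, 1 of 2 in its summit window, and GATA strings were found in 18.6% of all windows. A match is a description of the letters and was not tested for binding.

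The Spi1 gene (ENSMUSG00000002111.8) lies on the plus strand at chr2:91082390-91115756, and distances are given from the start of its principal transcript at base 91096096. Of the 25 merged OCRs, 19 were present in all 7 libraries, that is 76.0%, where 46.2% of all merged OCRs were. Of the 16 OCRs more than 1 kb from every annotated start (distal OCRs), 12 were in all 7 libraries, and the share over the genome was 41.6%. Intensity was compared within a library, as the percentile of the fold enrichment of a peak among all peaks of that library. In the Spi1 window 7 OCRs had a mean percentile of at least 75, and 17.1% of all merged OCRs did.

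**Figure D1:**
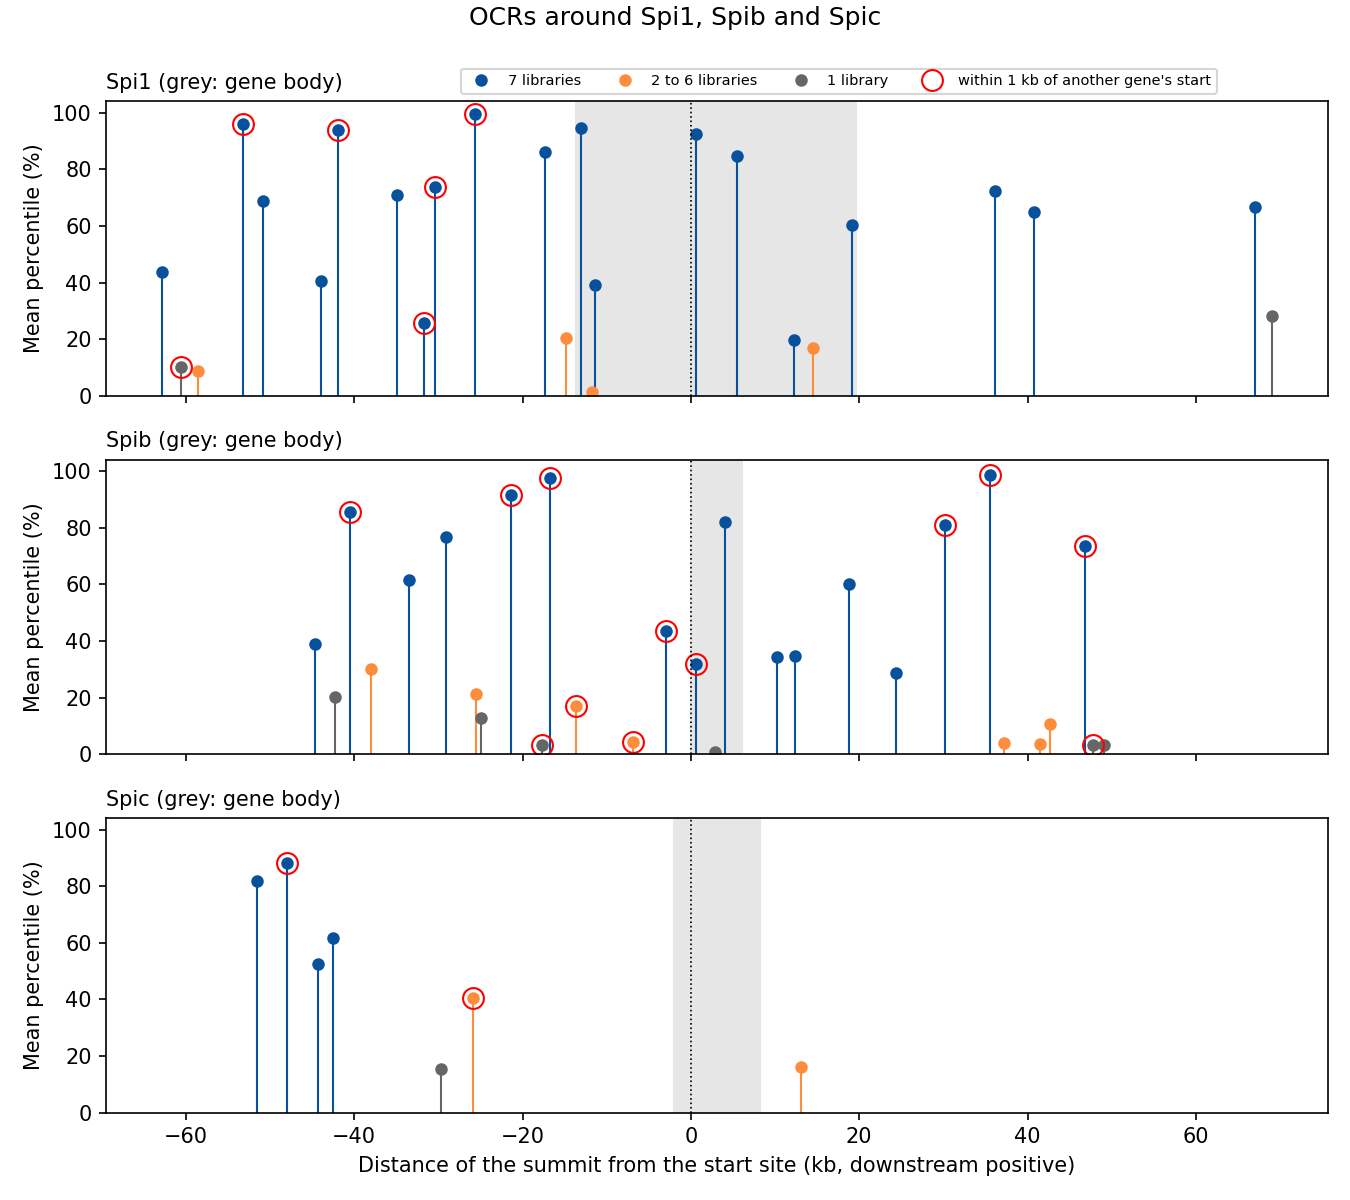
Merged OCRs around Spi1, Spib and Spic. The x axis is the distance of the summit from the start site in kb, the y axis the mean percentile of the fold enrichment over the libraries with a peak, and red rings mark OCRs within 1 kb of the start of another gene. Spi1 has high OCRs at its promoter and upstream of it, the gene body of Spib has 1 high OCR at +4.0 kb, and the gene body of Spic has none.

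The URE was taken as the OCR that holds the position 14 kb upstream of the start, chosen by that position and not by its value. It was called in all 7 libraries and, merged, covered chr2:91081876-91083947, with its most common summit at -13.0 kb. Its fold enrichment was 92.0, 85.4, 101.5, 105.1, 51.9, 88.5 and 115. The mean was 91.3 ± 20.1 (SD, n = 7), HPC7-6 stood below the other libraries, and the percentile was 94.5 ± 1.71. The summits of the 7 libraries fell within 57 bp of each other, and the peak was 1889 ± 121 bp wide (SD, n = 7). The OCR also covers the annotated starts of 2 alternative transcripts of Spi1, so that by annotation it lies at alternative starts inside the gene body and is not counted among the distal OCRs.

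The promoter OCR covered chr2:91095941-91098912, with its summit at +0.6 kb, in the untranslated part of exon 1. Fold enrichments there were 83.0, 61.9, 78.2, 73.1, 50.4, 67.7 and 83.9. HPC7-6 was again the lowest, though by percentile HPC7-5 was lower (90.6, with 90.9 in HPC7-6). The mean fold enrichment was 71.2 ± 12.1 (SD, n = 7) and the percentile was 92.4 ± 1.53. At 2606 ± 150 bp (SD, n = 7) it was the widest OCR of the gene body, wider than the URE though lower. Its summit window held 1 AGGAAGT and 1 C/EBP string, and AGGAAGT was found in 19.4% of all windows.

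The URE was higher than the promoter in 7 of 7 libraries. The difference in log2 fold enrichment was 0.34 ± 0.18 (SD, n = 7, exact two-sided sign-flip permutation test, p = 0.0156, the smallest that 7 libraries allow, and 0.0195 adjusted by Benjamini-Hochberg over 10 tests). It was 0.33 on average in the libraries named VD and 0.35 in those named EtOH. As a ratio, the URE stood at 1.28 ± 0.150 times the promoter, from 1.03 in HPC7-6 to 1.44 in HPC7-5. The reads at the 2 summits, recovered from the fold enrichments, were 1966 and 1772 in HPC7-1, the library with the most, and 331 and 321 in HPC7-6. The 95% exact binomial interval of the read ratio was above 1 in 6 of 7 libraries. It was 0.882 to 1.21 in HPC7-6, where the ratio was 1.03 and no difference was detectable. These intervals cover counting error only.

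**Figure D2:**
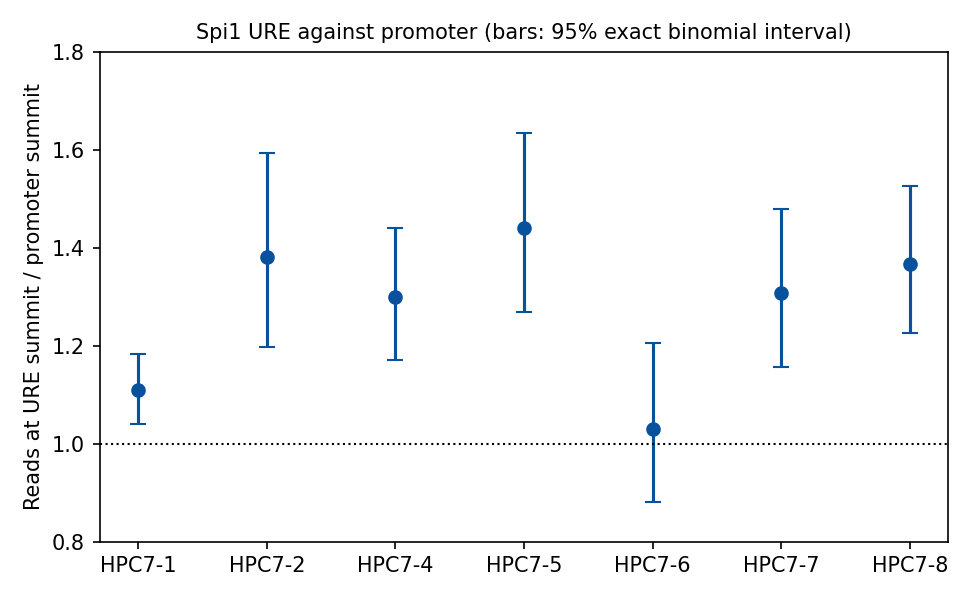
Reads at the URE summit divided by reads at the Spi1 promoter summit in each library, with 95% exact binomial intervals. All 7 ratios lie above 1, and only the interval of HPC7-6 (0.882 to 1.21) includes 1.

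The next 2 OCRs flanked this pair. The OCR at -17.4 kb lay in no gene and over 1 kb from any annotated start. Its fold enrichment was 41.1, 39.1, 41.1, 36.2, 29.7, 37.1 and 40.8, with a mean of 37.9 ± 4.09 (SD, n = 7) and a percentile of 86.3 ± 1.84. Its coefficient of variation, 10.8%, was the lowest among the 14 OCRs of the Spi1 window that were in all 7 libraries and over 1 kb from the start of any other gene. The OCR at +5.5 kb (chr2:91101158-91101862) lay in intron 2 and had fold enrichments of 33.5, 29.2, 29.3, 41.4, 23.2, 32.0 and 39.6, with a mean of 32.6 ± 6.31 (SD, n = 7). At 610 ± 65.8 bp it was narrower than the OCR at -17.4 kb, which was 1382 ± 178 bp wide. The OCR at -17.4 kb was the higher of the 2 in 6 of 7 libraries, by 0.23 ± 0.24 on the log2 scale (SD, n = 7), so their order did not stand clear of the spread.

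**Figure D3:**
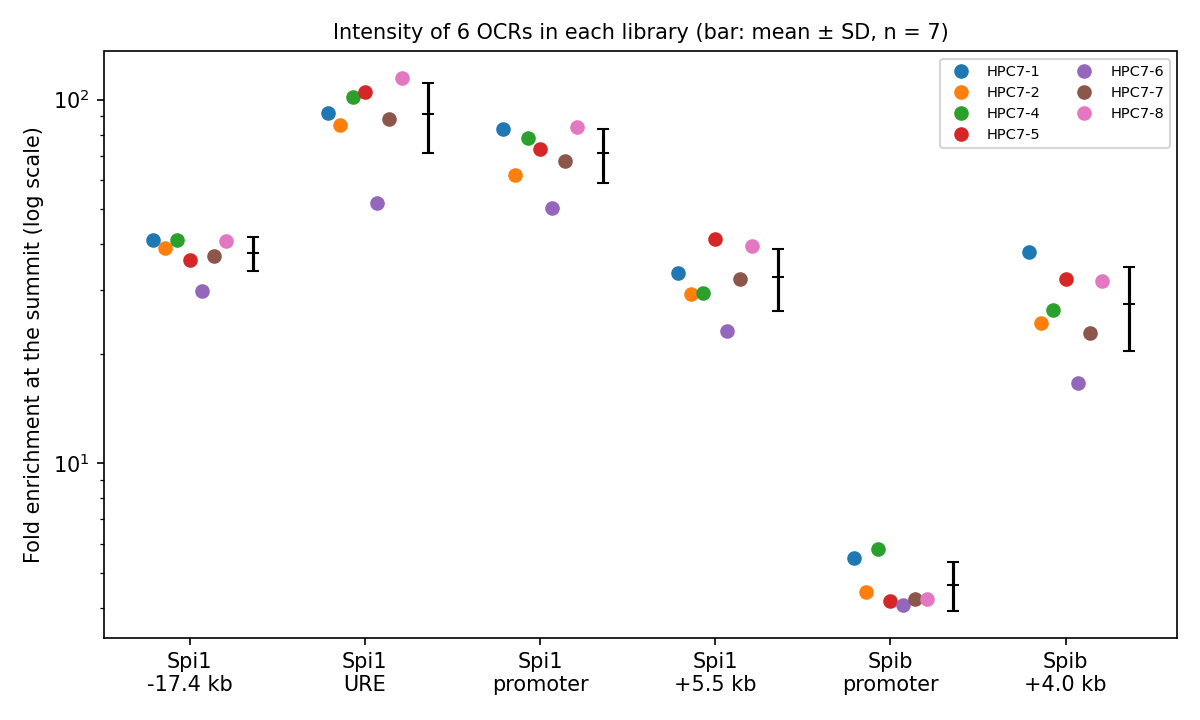
Fold enrichment at the summit of 4 Spi1 OCRs and 2 Spib OCRs in each library, on a log axis, where points are libraries and bars give the mean ± SD (n = 7). The URE and the Spi1 promoter are the highest of the 6, and the Spib promoter is the lowest at 4.07 to 5.80. HPC7-6 has the lowest fold enrichment at each of them, which does not hold for the percentile.

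The remaining OCRs of the gene body were lower. The OCR at -11.4 kb, the nearest to the URE that was called in all 7 libraries, had a mean fold enrichment of 5.46 ± 1.51 (SD, n = 7), from 3.79 to 8.30. The OCR at +12.3 kb, in intron 2, had 3.71 ± 0.798, from 2.78 to 5.24, and its percentile ranged from 0.170 to 38.8, so it lay near the limit of what was called. The OCR at +19.1 kb had its summit in the coding part of exon 5, the last of Spi1, which encodes the ETS domain. The 7 fold enrichments were 11.6, 9.37, 5.92, 11.3, 6.88, 7.86 and 12.8, with a mean of 9.39 ± 2.61 (SD, n = 7) and a percentile of 60.2 ± 9.06.

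In the flanks of Spi1, 5 OCRs formed a band of similar intensity. They lay at -50.8 kb, at -34.9 kb in Psmc3, at +36.1 kb in Mybpc3, at +40.8 kb between genes and at +67.0 kb in Madd. Mean fold enrichments were 13.1, 13.7, 14.6, 10.99 and 11.6, and these OCRs changed places with their neighbours in the order from library to library. That at +36.1 kb, the highest of them on average, was above the next in only 4 of 7 libraries. The OCRs at -43.9 kb and -62.8 kb were lower, with means of 5.48 and 6.02. In order of mean fold enrichment, ranks 1 and 2 (URE, promoter) were the same in all 7 libraries among the 14 OCRs, and from rank 3 on neighbours changed places in at least 1 library except between ranks 4 and 5 and between ranks 10 and 11. Of the 14 OCRs, 5 held an AGGAAGT, 4 a TGTGGT and 3 an AGATAA in the summit window, that is 35.7%, 28.6% and 21.4%, where 19.4%, 33.5% and 18.6% of all OCRs did.

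In the Spi1 window 6 OCRs lay within 1 kb of the start of another gene, 5 of them in all 7 libraries. The highest OCR of the whole window was one of these. It lay at -25.6 kb over the start of Slc39a13, which encodes a zinc transporter, with a fold enrichment of 218 ± 45.9 (SD, n = 7) and a percentile of 99.6. The OCR at -53.2 kb, at a start of Rapsn, had 104.9 ± 16.7, and that at -42.0 kb, at the start of Psmc3, a proteasome subunit, had 83.3 ± 16.4. So 3 of the 7 OCRs with a mean percentile of at least 75 were at promoters of other genes, and the remaining 4 were the URE, the Spi1 promoter and the OCRs at -17.4 kb and +5.5 kb. The 6 OCRs found in fewer than 7 libraries had fold enrichments of 2.01 to 4.87, and HPC7-1, the library with the longest list, contributed to all 6.

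Spib (ENSMUSG00000008193.13) lies on the minus strand at chr7:44525993-44532071, in a dense stretch with 6 other protein-coding genes in its window. Of its 29 merged OCRs, 16 (55.2%) were in all 7 libraries, against 46.2% of all merged OCRs. Of its 17 distal OCRs 8 were, against 41.6% of distal OCRs over the genome. The 13 merged OCRs found in fewer than 7 libraries had fold enrichments of 1.97 to 5.24, and HPC7-1 contributed to 12 of them. In all, 12 OCRs, the Spib promoter among them, lay within 1 kb of the start of another gene. These included 5 of the 7 OCRs with a mean percentile of at least 75, the highest of them at +35.5 kb at the starts of Emc10 and Fam71e1, with a fold enrichment of 163 ± 29.5 (SD, n = 7).

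The Spib promoter was open in all 7 libraries but low, with fold enrichments of 5.47, 4.41, 5.80, 4.18, 4.07, 4.22 and 4.22, which is 4.62 ± 0.705 (SD, n = 7). The percentile was 32.0 ± 12.4, from 18.0 in HPC7-5 to 52.9 in HPC7-1. The summit was not at 1 place, and lay at -130 bp in HPC7-4, at -33 bp in HPC7-7 and between +552 and +685 bp in the other 5. The merged OCR, 2170 bp wide, also came within 1 kb of an annotated start of Pold1, so the 2 genes cannot be told apart there. The 250 bases upstream of the start of Spib, at chr7:44532072-44532321, and of Spic, at chr10:88683024-88683273, both on the minus strand, are shown for comparison from RefSeq promoters (GRCm38.p6, 2 of the 3 genes matched), with capitals as above.
Spib promoter: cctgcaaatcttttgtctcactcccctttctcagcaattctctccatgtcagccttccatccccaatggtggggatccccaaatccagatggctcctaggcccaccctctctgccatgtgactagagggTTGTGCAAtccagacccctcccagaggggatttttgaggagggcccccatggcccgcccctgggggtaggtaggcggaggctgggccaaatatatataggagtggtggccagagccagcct
Spic promoter: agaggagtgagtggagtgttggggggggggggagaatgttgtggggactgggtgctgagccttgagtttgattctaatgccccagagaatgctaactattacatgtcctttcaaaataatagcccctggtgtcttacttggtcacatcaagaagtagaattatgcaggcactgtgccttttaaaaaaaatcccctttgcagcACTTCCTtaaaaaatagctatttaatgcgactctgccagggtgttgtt

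The Spib promoter held 1 C/EBP string, which 9.56% of 32851 promoters of this length hold, and the Spic promoter held 1 PU.1-type string, which 7.69% hold. The highest OCR inside Spib lay not at its promoter but at +4.0 kb (chr7:44527089-44528602). Its fold enrichment was 38.2, 24.3, 26.4, 32.2, 16.6, 22.9 and 31.8, with a mean of 27.5 ± 7.15 (SD, n = 7) and a percentile of 82.2 ± 3.60. In every library this was above the Spib promoter, by values that did not overlap. The other OCRs of the Spib window that were in all 7 libraries and away from the starts of other genes had mean percentiles from 28.7 at +24.4 kb to 76.6 at -29.1 kb.

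The summit at +4.0 kb lay in the coding part of exon 6, the last of Spib, which encodes the ETS domain, as the last exon of Spi1 does. This shared position was noticed after the values were seen. The coding part of the last exon spans 317 bases in Spi1 (chr2:91115075-91115391) and 296 bases in Spib (chr7:44527962-44528257). Both were 62.1% to 62.2% G or C and held 23 CpG dinucleotides each. In Spic the corresponding 404 bases (chr10:88675667-88676070) were 47.5% G or C with 7 CpG, and no OCR overlapped them in any library. The part of base composition in this was not tested.

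Spic (ENSMUSG00000004359.16) lies on the minus strand at chr10:88674772-88685015. No library had an OCR in its gene body or within 1 kb of its start. The nearest, at +13.1 kb, was called in HPC7-4 and HPC7-8 alone, with a mean fold enrichment of 3.60. Of the 7 merged OCRs of the window 4 were in all 7 libraries (57.1%), against 46.2% of all merged OCRs. These 4 stood together between -42.5 and -51.5 kb. The OCR at -48.0 kb, at the starts of Arl1 and Gm4925, had a fold enrichment of 46.8 ± 7.02 (SD, n = 7), and that at -51.5 kb, inside Arl1, had 26.0 ± 4.26. Those at -42.5 and -44.3 kb had 9.91 ± 2.76 and 7.83 ± 2.24. Arl1 encodes a small GTPase of the Golgi.

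The promoter percentile of Spi1 exceeded that of Spib by 60.4 ± 11.4 points (SD, n = 7), from 41.1 in HPC7-1 to 72.6 in HPC7-5 (7 of 7 libraries, exact sign-flip permutation test, p = 0.0156, adjusted 0.0195). The mean was 51.5 in the libraries named VD and 67.0 in those named EtOH. Spi1 exceeded Spic, set to 0 where no peak was listed, by 92.4 ± 1.53 points, and Spib exceeded Spic by 32.0 ± 12.4 points. Since no peak was ever listed for Spic, both of these differences are the percentile of the other gene and are given with no test. With lists of equal length (the 84593 most significant peaks of each library), the Spib promoter had a peak in 6 of 7 libraries, all but HPC7-8. The mean percentile of the Spib promoter was then 17.2, with HPC7-8 set to 0. Over 21938 protein-coding genes, the mean promoter percentile of Spi1 was higher than that of 70.7% and that of Spib higher than that of 48.1%, and 52.1% had a promoter peak in all 7 libraries.

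Counted over the 50 kb windows, which span 133367 bp for Spi1, 106079 bp for Spib and 110244 bp for Spic, the numbers of OCRs of Spi1 and Spib did not differ detectably. The Spi1 window held 22.0 ± 2.52 (SD, n = 7), from 19 to 26, the Spib window 22.3 ± 3.25, from 20 to 29, and the Spic window 5.71 ± 0.951, from 4 to 7. The difference between Spi1 and Spib was -0.286 ± 2.29 (higher in 3 libraries, lower in 3 and equal in 1, exact sign-flip permutation test, p = 0.875), and it ran from -4 to -1 in the 3 libraries named VD and from 0 to 3 in the 4 named EtOH, so that the pooled value covers libraries that did not overlap. Spi1 held 16.3 ± 2.21 more than Spic, and Spib held 16.6 ± 3.10 more than Spic (7 of 7 libraries, exact permutation test, p = 0.0156, adjusted 0.0195). Per 100 kb of window these differences were 11.3 and 15.8. The windows of Spi1, Spib and Spic overlapped 5, 6 and 1 other protein-coding genes. In the same order, 6, 12 and 2 of the merged OCRs lay within 1 kb of the start of another gene. For distal OCRs, Spi1 exceeded Spib by 2.43 ± 2.44 (SD, n = 7, 6 of 7 libraries, exact permutation test, p = 0.0781, adjusted 0.0868), and HPC7-1, where Spib held 18 and Spi1 16, went the other way. The mean was 0.667 in the libraries named VD, from -2 to 2, and 3.75 in those named EtOH, from 2 to 6. Without HPC7-1, the only library with a negative value, this difference was 3.17. The libraries left were then all positive and could give only the smallest p, so no test is given. With any other library left out the difference was 1.83 to 2.50 (exact permutation test, p = 0.125 to 0.156). Spi1 exceeded Spic by 9.43 ± 1.90 distal OCRs and Spib exceeded Spic by 7 ± 3.16 (7 of 7 libraries each, exact permutation test, p = 0.0156). The comparison of Spi1 with Spib depended on the flank. With 100 kb flanks Spi1 held fewer OCRs than Spib, with a mean difference of -8.14 (exact permutation test, p = 0.0156). The distal difference was then -0.714 (exact permutation test, p = 0.8125). With 25 kb flanks these differences were 1.57 (exact permutation test, p = 0.0938) and 3.86 (exact permutation test, p = 0.0156). It depended also on the unequal window lengths. Per 100 kb of window, the difference over the 7 libraries was -4.51 (exact permutation test, p = 0.0156) and the distal difference was -0.328 (exact permutation test, p = 0.766). Per 100 kb, the merged OCRs numbered 18.7, 27.3 and 6.35, where the median over all protein-coding genes was 10.2.

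The 5 genes whose promoter percentiles were closest to those of Spi1 over the 7 libraries were Cyfip2, Tmem86b, Trmt11, Pan3 and Slc30a7. The sum of their absolute differences from Spi1 was 2.51 to 2.68 points. Their mean percentiles lay between 92.1 and 92.4, against 92.4 for Spi1.

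Genes that act around PU.1 were counted by their promoters, with 52.1% of all protein-coding promoters open in all 7 libraries. Of 13 regulators of Spi1, 11 had a promoter OCR in all 7, and Gata2 and Erg had it at another annotated start. Mean percentiles were 95.1 for Runx1 and 99.4 for Cbfb, the subunits of the factor that binds the URE, 88.3 for Cebpa, 83.9 for Cebpb and 59.3 for Gfi1, a repressor. Of 6 partners, 5 had one in all 7, with 98.8 for Jun and 68.3 for Irf8, and Irf4, a partner of PU.1 in B cells, had none at any annotated start.

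Of 17 myeloid targets, 12 had a promoter OCR in all 7 libraries. Mean percentiles were 90.2 for Fcgr3, an Fc receptor, 80.8 for Mpo and 70.5 for Elane, both of neutrophil granules, and 33.5 for Csf1r, the receptor for macrophage colony-stimulating factor. Others, Csf3r, Itgam and Ncf4 among them, had one in some libraries at the reference start. Counted at every annotated start, Csf3r had one in all 7 libraries (mean percentile 64.3) and Ncf4 in 6 (31.6). Cybb, which encodes the catalytic subunit of the phagocyte oxidase, had none at any annotated start. Of 8 lymphoid targets, 3 had one in all 7 (Bcl11a with a mean percentile of 94.3, Flt3 with 90.1 and Il7r with 79.0), Cd79b had one in 3 libraries, and Pax5, Ebf1, Cd79a and Pou2af1, which act in B cells, had none. Of 5 genes of iron-recycling macrophages linked to Spic, only Hmox1, heme oxygenase, had one in all 7 at its reference start, with a mean percentile of 89.6. Vcam1 and Adgre1 had none in any library, and Cd163 had one in 4 libraries at its reference start and in all 7 at another start.

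**Figure D4:**
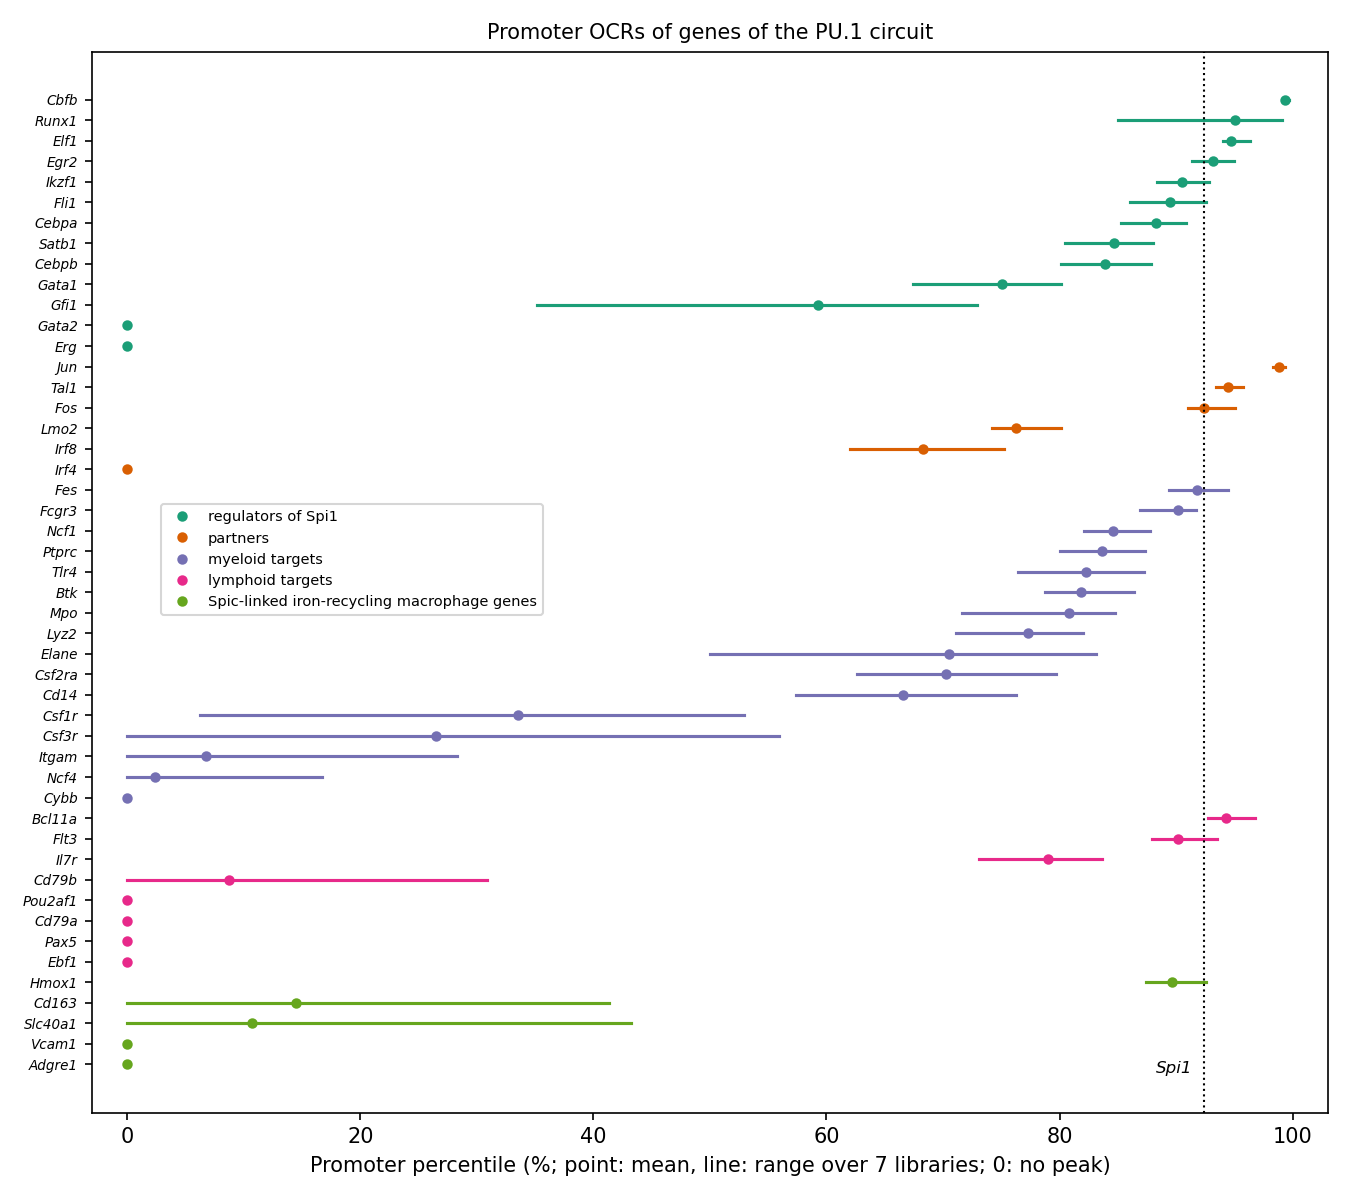
Promoter percentile of 48 of the 49 listed genes of the PU.1 circuit by class, with the mean as a point and the range over the 7 libraries as a line, where 0 stands for no peak within 1 kb of the reference start. The dotted line is the mean of Spi1 (92.4), regulators lie mostly between 75 and 100, and 4 of 8 lymphoid targets lie at 0.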

How the data were processed

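Peaks of 7 bulk ATAC-seq libraries of HPC7 cells were analysed. According to the methods, reads were trimmed with Cutadapt and aligned to mm10 with BWA-mem, and peaks were called with MACS2 in each library, and versions and options are not given in the sources used here. Each deposited peak has a summit, a score, its significance on the -log10 scale (p and q) and a fold enrichment, the ratio of summit reads to background. How reads were shifted for the cut site is not given in the sources used here. Whether the authors scaled the libraries is not given in the sources used here, so the tests compared loci within a library. Statements on which library had the lowest fold enrichment, and flags on log2 fold enrichment, compare the listed values between libraries without further scaling.

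The 3 genes, the motifs and the lists were chosen with earlier results of these data known. Peaks were merged from 1 bp of overlap (checked against bedtools 2.31.1) and annotated with GENCODE M21. A promoter was 1 kb on either side of the start of the principal transcript. Fold enrichments were whole multiples of a step in 100% of peaks (tolerance 0.05 of a read), which gave the reads at each summit. Differences were tested by exact two-sided sign-flip permutation over 7 libraries (128 patterns, smallest p = 0.0156), adjusted over 10 tests by Benjamini-Hochberg (2 of these, the promoters of Spi1 and Spib against an unlisted Spic promoter, could give nothing but the smallest p; they are given with no test but count in the adjustment, and over the other 8 tests an adjusted p of 0.0195 becomes 0.0208 and one of 0.0868 becomes 0.0893). Named with values were the OCRs in all 7 libraries over 1 kb from the start of another gene, the promoters and the URE. Alternatives tried were peaks with -log10 q from 5 upwards, equal lists, other flanks, joining by summits within 150 bp, other start rules, other scales, and each library left out. Counting every annotated start for the gene lists was added after the data were seen. Scripts used Python 3.11.15, pandas 2.3.3, scipy 1.17.1 and pysam 0.24.0, and were tested on simulated data. Some genes and sequences are not reported here.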

Additional observations from a re-analysis of the deposited data

Results flagged for a closer look

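Of 69 measures over the 7 libraries, 8 had a lowest or highest library set apart from the rest by Dixon's criterion (a gap of over 0.568 of the range), which chance gives in about 1 of 20 separate measures. That rate does not apply as it stands here, since measures share values. The Spic promoter percentile, 0 in every library, could not be flagged, and the differences from it repeat the percentiles of Spi1 and Spib. Of the 8 flagged measures, 4 concerned the Spib window in HPC7-1, the library with the longest list of peaks (132852). It held 29 OCRs there, with 23 in the next library, and 18 distal OCRs, with 11 in the next. The differences between Spib and Spic in that library were 23 OCRs (next 17) and 14 distal OCRs (next 7).

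The other 4 concerned HPC7-6, the library with the shortest list (84593), and each was low. The log2 fold enrichment there was 5.70 at the URE (next 6.42), 4.89 at the Spi1 OCR at -17.4 kb (next 5.18) and 2.68 at the Spi1 OCR at +40.8 kb (next 3.39). The percentile of the Spic OCR at -44.3 kb was 20.1 (next 49.8). By percentile none of the Spi1 OCRs named here was set apart. Their gaps were 0.515, 0.236 and 0.408 of the range, in the same order. At -17.4 kb the percentile was lower in HPC7-5 (83.3) than in HPC7-6 (84.6). The part of list length in these values was not tested.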

How the results depend on the processing

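Because the libraries form 1 group, no replicate number joins 2 groups and samples could not be paired across groups. The tests were paired by library, since they compared loci within each library. Of 95 recomputed differences, the 2 promoter comparisons with Spic left out, 82 kept their direction and their side of the threshold. Among these were Spi1 against Spib at the promoter and the URE against the promoter. Where a difference was positive in all 7 libraries, leaving 1 out could give only the smallest p, so these recomputations could not change side. The URE difference, 0.342, was also unchanged with a -log10 q of at least 5 and with equal lists, which alter no fold enrichment. Of 77 recomputed counts 66 stayed within 1.5 times. The Spib promoter percentile fell from 32.0 to 17.2 with lists of equal length, where HPC7-8 had no peak and was set to 0. Spib exceeded Spic by 7 distal OCRs, which became 4.57 with equal lists, 4.29 with 25 kb flanks and 12.4 with 100 kb flanks, and by 16.6 OCRs, which became 29.1 with 100 kb flanks. The comparison of Spi1 with Spib in number of OCRs (-0.286) did not keep its sign. It was 1.86 with a -log10 q of at least 5 (exact permutation p = 0.0938) and 1.86 with lists of equal length (exact permutation p = 0.125). With 25 kb flanks it was 1.57 (exact permutation p = 0.0938). It was -8.14 with 100 kb flanks and -4.51 per 100 kb (exact permutation p = 0.0156 each). When 1 library was left out it ranged from -0.833 to 0.333 (exact permutation p of at least 0.5), the latter without HPC7-1, and was exactly 0 without HPC7-2. For distal OCRs (2.43) it was 2.71 with the stricter q (exact permutation p = 0.0312). It was 3.29 with equal lists and 3.86 with 25 kb flanks (exact permutation p = 0.0156 each). With 100 kb flanks it was -0.714 (exact permutation p = 0.8125), and per 100 kb it was -0.328 (exact permutation p = 0.766). It was 3.17 without HPC7-1, and from 1.83 to 2.50 with any other library left out (exact permutation p = 0.125 to 0.156). The cause was not tested. With 25 kb flanks the merged OCRs numbered 16 for Spi1, 15 for Spib (10 in all libraries) and 2 for Spic (0 in all libraries). With 100 kb flanks they numbered 38, 54 (26 in all libraries for Spib) and 12, and with equal lists Spib had 19. Counted at every annotated start, promoters open in all 7 libraries were 13 of 13 regulators, 5 of 6 partners, 13 of 17 myeloid targets, 3 of 8 lymphoid targets and 2 of 5 iron-recycling genes, where 55.9% of all protein-coding genes were by the same rule.

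The weakest OCRs lie near the limit of the lists, and the part of depth in this was not tested. The lowest fold enrichment listed ranged from 1.68 in HPC7-1 to 2.44 in HPC7-5. So OCRs found in few libraries, with values near these limits, cannot be told apart from OCRs below the limit of the others. Some had values above all these limits, such as the Spib OCR at -37.9 kb, with 3.64 to 5.24 in 4 libraries. Why the other libraries did not list it was not tested. An unlisted Spic promoter is one below the limit of each list.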
